A study of Mus musculus with 15 samples.

Results

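Collagens are the trimeric structural proteins of the extracellular matrix, and the genes described here are the 44 protein-coding genes, of 39331 genes in the count table, whose symbol has the form of a collagen chain (Col, type number, a, chain number). The rule itself used names only and no measured value. The genes, their classes and the gene lists used below were chosen with earlier results of these data known. The 44 genes were sorted by the structures their proteins build into 11 fibrillar chains, the 6 basement membrane chains of type IV, 9 fibril-associated chains and 18 others. The others are 6 chains of the beaded filament collagen VI, 3 chains of hexagonal networks (types VIII and X), the multiplexins Col15a1 and Col18a1, 4 transmembrane chains, the anchoring fibril chain Col7a1 and the unclassed Col26a1 and Col28a1. Of the 44 genes, 42 passed the filter on low counts and were tested. Col9a1 and Col10a1 did not.

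The libraries hold messenger RNA of left ventricles from C57BL/6 mice that had all undergone experimental myocardial infarction, controls included, so no group is an uninjured heart. There were 4 libraries of neonatal hearts given adult T cells (1, 2, 4 and 5), and neonatal control hearts left untreated gave 4 (6 to 9). Adult hearts that received adult T cells gave 4 libraries (1 to 4), and adult control hearts gave 3 (5 to 7). The design asks whether transferred adult T cells alter the injured neonatal heart, with adult hearts beside it. The labels give a time of 36 h after infarction for the neonatal hearts. They state no time for the adult hearts, and no age in days, cell dose, infarct size or pooling of animals, so age cannot be told apart from any difference in time between the age groups. Nothing says that the libraries of a group came from separate animals, so p-values measure the spread between these libraries, which may be technical.

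Fibrillar collagens I, III and V assemble into the banded fibrils that give a scar its tensile strength, and in the heart they are made mainly by fibroblasts. Type IV collagen forms the sheet-like network of basement membranes around cardiomyocytes and vessels, in trimers that combine the chains of Col4a1 with Col4a2, of Col4a3 with Col4a4 and Col4a5, or of Col4a5 with Col4a6. Fibril-associated collagens decorate fibril surfaces, and type VI filaments link basement membranes to the fibrils around them.

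The type IV genes lie head to head in 3 pairs that are transcribed away from each other. In the count table (GRCm38.p6) the spans of Col4a1 and Col4a2 share 85 bases, those of Col4a3 and Col4a4 share 114 bases, and 1274 bases separate Col4a5 from Col4a6. The library kit marks strand, but the strand setting of the counting is not stated, so reads in the shared bases of the first 2 pairs cannot be assigned with certainty. The sequences just before the start of Col4a5 and Col4a6 are shown because both genes were higher in neonatal hearts at both comparisons of age. Those of Col5a1, Col1a2 and Col3a1 are shown because the type V gene passed the test of age while its type I and type III fibril partners did not. Whether the age differences of these genes differ from each other was not tested. In controls the log2 fold changes were 0.69 for Col5a1, 0.59 for Col1a2 and 0.07 for Col3a1. Capitals mark the letters of a TATA box (TATAAA), of a CCAAT box, or of a GC box with the core GGGCGG, each on either strand, so a copy on the opposite strand shows as its reverse complement, and no marked copies overlap.
Col4a5, chrX:141475169-141475369, plus strand, 201 bases: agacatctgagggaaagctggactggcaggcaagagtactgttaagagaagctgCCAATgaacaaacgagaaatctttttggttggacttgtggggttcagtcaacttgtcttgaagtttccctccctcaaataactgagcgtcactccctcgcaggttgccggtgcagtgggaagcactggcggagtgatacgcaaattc
Col4a6, chrX:141474096-141474326, minus strand, 231 bases: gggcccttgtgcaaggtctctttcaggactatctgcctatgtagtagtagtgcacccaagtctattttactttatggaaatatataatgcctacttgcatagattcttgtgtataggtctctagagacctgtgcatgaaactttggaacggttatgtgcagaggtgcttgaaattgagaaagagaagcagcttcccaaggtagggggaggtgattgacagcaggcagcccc
Col5a1, chr2:27886175-27886380, plus strand, 206 bases: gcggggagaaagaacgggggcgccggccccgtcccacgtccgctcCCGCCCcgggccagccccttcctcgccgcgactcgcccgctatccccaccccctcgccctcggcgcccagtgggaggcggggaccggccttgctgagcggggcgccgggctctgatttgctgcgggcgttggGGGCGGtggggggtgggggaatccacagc
Col1a2, chr6:4505368-4505617, plus strand, 250 bases: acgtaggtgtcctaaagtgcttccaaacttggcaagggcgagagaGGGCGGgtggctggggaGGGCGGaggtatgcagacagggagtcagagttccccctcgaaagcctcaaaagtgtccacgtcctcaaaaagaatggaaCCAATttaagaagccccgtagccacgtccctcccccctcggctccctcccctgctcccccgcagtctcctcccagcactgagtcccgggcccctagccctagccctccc
Col3a1, chr1:45311288-45311537, plus strand, 250 bases: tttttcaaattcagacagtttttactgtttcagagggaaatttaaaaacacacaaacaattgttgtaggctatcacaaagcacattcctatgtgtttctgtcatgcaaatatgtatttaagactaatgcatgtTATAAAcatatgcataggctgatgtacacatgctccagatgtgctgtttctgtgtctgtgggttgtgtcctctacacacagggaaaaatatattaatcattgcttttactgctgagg

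These sequences come from the RefSeq promoter table on GRCm38.p6, read 5′ to 3′ on the strand of the gene, as the part of the 250 bases before the start that lies outside every gene span of the count table. The Col4a5 stretch holds 1 CCAAT and the Col4a6 stretch none of the 3 motifs, the Col5a1 stretch holds 2 copies of GGGCGG, the Col1a2 stretch 1 CCAAT and 2 copies of GGGCGG, and the Col3a1 stretch 1 TATAAA. Of the 44 collagen genes, 35 had a window in the table. Over the full 250 bases GGGCGG occurred in 60.0% of the 35 windows and in 32.9% of all 27025 windows, CCAAT in 34.3% and 34.5%, and TATAAA in 14.3% and 13%. The full windows of Col4a5 and Col4a6 are among those with GGGCGG, although the shorter stretches shown for them hold no copy. A match is a description of the letters and not of a bound factor.

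Total counts ran from 21871617 to 34302786 per library, and 3 counts, the limit that a count of 0 allows, equalled a level of 0.0875 to 0.137 CPM, the count scaled to library size; this floor covers counting error only. Levels below are CPM after trimmed-mean (TMM) scaling, log2 fold changes are given ± standard error from 1 edgeR fit of 16437 genes over all 15 libraries, and p was adjusted over all those genes (Benjamini-Hochberg). Summed T cell markers (10 genes) were 2.729 to 4.461 CPM in neonatal recipients and 2.877 to 4.186 in neonatal controls, which overlapped. In adults they were 5.3 to 9.383 CPM in recipients and 3.368 to 4.78 in controls. Their part in the collagen values was not tested. Summed markers of cardiomyocytes (10 genes) stood at 43150 to 73240 CPM, and 8 markers of lung and thymus summed to at most 3.502 CPM in any library. Since these are whole ventricles, fewer cells of a type and less RNA per cell cannot be told apart. Libraries of a group differed in overall collagen level. Adult control 7 was the highest of its group in 33 of 42 tested collagens and adult control 6 the lowest in 34 (37.2% and 35.8% over all genes), adult recipient 4 was the highest of its group in 25 (26.8% over all genes) and neonatal control 8 the lowest in 26 (30.5%). Calls of collagens named below that were gained or lost without any single one of these libraries are given beside the gene.

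Collagen transcripts made up 1.22 ± 0.0801% of all counts in neonatal recipients (mean ± SD, n = 4), 1.12 ± 0.232% in neonatal controls (n = 4), 0.896 ± 0.199% in adult recipients (n = 4) and 0.809 ± 0.186% in adult controls (n = 3). Col1a1, Col1a2, Col3a1, Col4a1 and Col4a2 together held 74.3% to 77.3% of those collagen counts in every library. Per kilobase of the longest annotated transcript, Col3a1 of type III collagen ranked first and Col4a1 second in all 4 groups. In neonatal controls the leading levels were 415.7 ± 68.5 CPM per kb for Col3a1, 290.2 ± 41.6 for Col4a1, 229 ± 82.2 for Col1a1, 219.9 ± 65.9 for Col1a2 and 192 ± 29.6 for Col4a2. In adult controls they were 395 ± 61.2 CPM per kb for Col3a1, 222 ± 25.2 for Col4a1, 157 ± 24.0 for Col4a2, 153 ± 66.8 for Col1a1 and 146 ± 54.3 for Col1a2. Libraries of Col3a1 and Col4a1 did not overlap in any group, whereas those of Col1a1 and Col1a2, the chains that make up type I collagen, overlapped in all 4. Col4a1 overlapped with Col1a1, the next in rank, in both neonatal groups and in adult recipients. Col6a2 and Col6a1 followed in every group at 63.7 to 87.7 CPM per kb on average, with overlapping libraries. Most further neighbours in the order overlapped too. Col9a1 had 0 to 7 counts in 14 libraries and 49 in adult recipient 2, and Col10a1 had 0 to 8 counts in all 15.

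**Figure D1:**
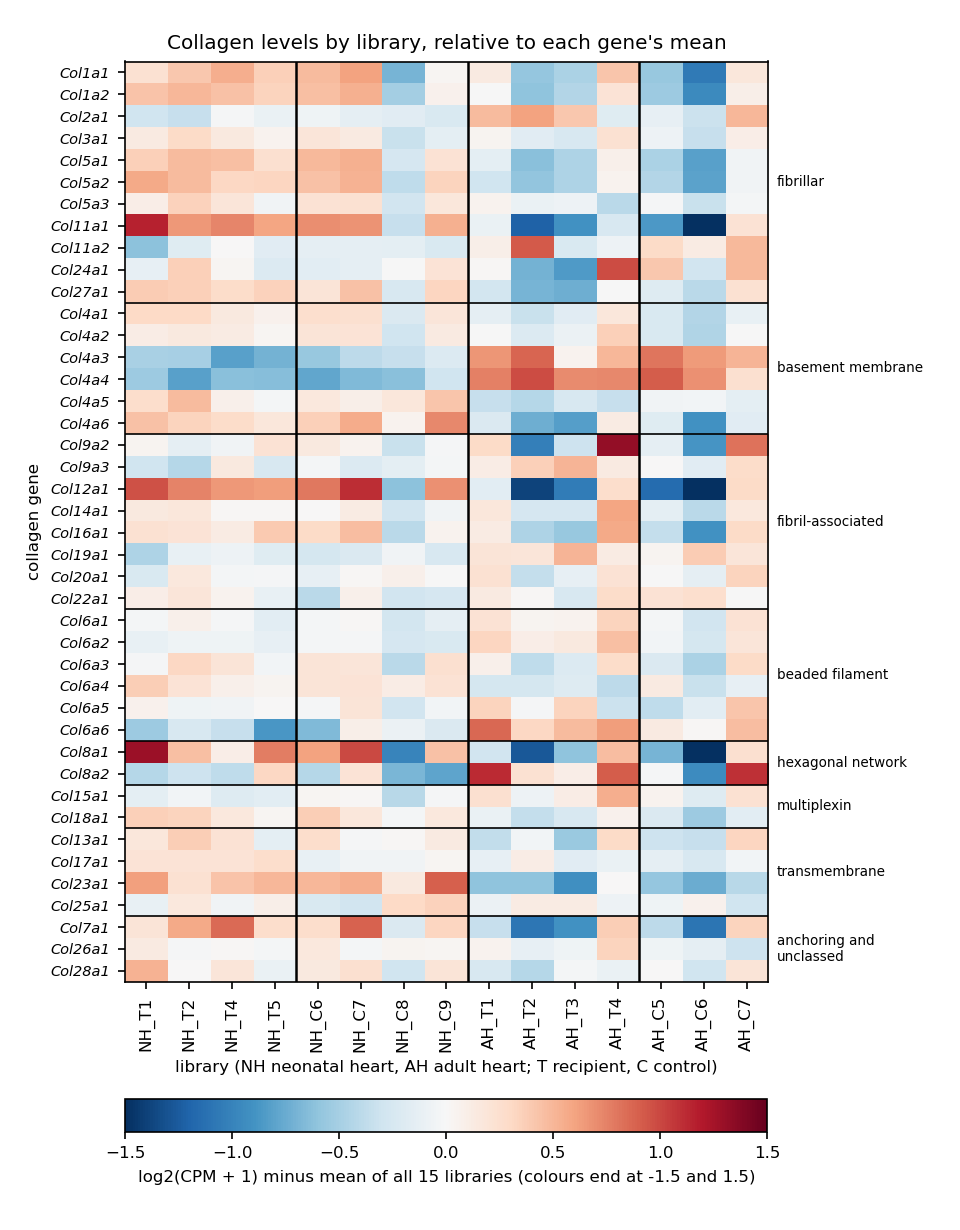
Each row is a tested collagen gene, grouped by class, and each column a library; colour gives log2(CPM + 1) minus the mean of that gene over the 15 libraries. Col4a3 and Col4a4 are blue in all 8 neonatal columns and red in the adult ones, while many fibrillar and fibril-associated rows are bluer in neonatal control 8 and adult control 6 than in the other libraries of their group.

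In neonatal hearts, no collagen differed between T cell recipients and controls beyond the spread between libraries. Of 42 collagens 0 passed the test, as 0% of all 16437 genes did, and 2 of 42 had an unadjusted p under 0.05, as did 513 of all 16437 genes (edgeR); DESeq2 and limma voom also called 0. A positive value was found for 29 of 42, with a median log2 fold change of 0.06 against -2e-04 over all genes, and this balance rested on neonatal control 8, without which 15 of 42 were positive and the median was -0.03. By class, 9 of 11 fibrillar, 3 of 6 basement membrane, 5 of 8 fibril-associated and 12 of 17 other collagens were positive, with medians of 0.14, -0.05, 0.08 and 0.05.

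Among the fibril-forming chains, Col3a1 measured 2578, 2867, 2597 and 2439 CPM in neonatal recipients 1, 2, 4 and 5, and 2671, 2585, 1866 and 2130 in controls 6 to 9; the log2 fold change was 0.18 ± 0.13 (edgeR adjusted p = 0.999). Col1a1, which encodes the alpha 1 chain of type I collagen, measured 1398, 1576, 1748 and 1529 CPM in recipients and 1664, 1820, 737 and 1215 in controls. For Col1a2 the values were 1382, 1460, 1403 and 1298 CPM against 1408, 1497, 722 and 1078. Control 8 was the lowest library for all 3 genes, and the groups overlapped. The log2 fold changes of Col1a1 and Col1a2 were 0.20 ± 0.32 and 0.24 ± 0.26 (edgeR adjusted p = 0.999 for both), and without control 8 they were -0.01 and 0.06.

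Control 8 was also the lowest neonatal control for Col4a1, Col4a2 and Col4a6, but not for Col4a3, Col4a4 or Col4a5. Col4a1 measured 2162, 2161, 1944 and 1835 CPM in recipients while controls gave 2089, 2078, 1512 and 2000. The log2 fold change was 0.08 ± 0.12 (edgeR adjusted p = 0.999), and -0.03 without control 8. Col6a6, a chain of type VI collagen, averaged 39.0 ± 7.29 CPM in recipients, below the 47.7 ± 10.1 of controls, with a log2 fold change of -0.29 ± 0.18 (edgeR adjusted p = 0.999). Further chains had close group means: 504 and 469 CPM for Col5a1, 311 and 279.6 for Col5a2, 274.5 and 261 for Col6a1, 123 and 119 for Col6a3, 140.2 and 128 for Col14a1 of fibril surfaces, and 248 and 255 for Col15a1 of vascular and muscle basement membranes. Libraries of recipients and controls did not overlap for 1 collagen, Col17a1, a transmembrane chain near the floor at 0.419 to 0.478 CPM in recipients and 0.142 to 0.263 in controls. It was picked out after its values were seen and passed the filter on low counts only through these recipients, and 1.36% of all genes did not overlap.

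In adult hearts 0 of 42 collagens passed the test either, against 8.55% of all genes, of which 3.53% were higher and 5.03% lower in recipients. That background itself fell to 0 genes without adult recipient 4, adult control 5 or adult control 6, and when the transcript length trend was removed. At an unadjusted p under 0.05 there were 3 of 42 collagens, and 4491 of all 16437 genes (edgeR), and the smallest adjusted p was 0.087, for Col6a2. DESeq2 called 1 gene, Col6a2, and limma voom 0. A positive value was found for 30 of 42, with a median log2 fold change of 0.15 against -0.0021 over all genes. With the transcript length trend removed, 35 were positive and the median was 0.284, against 0.0223 over all genes. Without adult recipient 4, the library highest in collagen, 22 were positive and the median was 0.02, and without adult control 6, the lowest, 20 were positive and the median was -0.01. By class, 7 of 11 fibrillar, 4 of 6 basement membrane, 6 of 8 fibril-associated and 13 of 17 other collagens were positive, with medians of 0.07, 0.09, 0.21 and 0.19.

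Col6a2, a type VI chain, lay nearest the threshold in adult hearts, followed by Col4a5 of type IV. Col6a2 measured 450.2, 385, 397 and 491 CPM in adult recipients 1 to 4 and 350.2, 299.6 and 409 in controls 5 to 7; the log2 fold change was 0.29 ± 0.11 (edgeR adjusted p = 0.087; 0.0365 to 0.36 over the alternatives). Control 7 exceeded recipients 2 and 3, so the groups overlapped. Without control 7 this gene passed the edgeR test at 0.41 on the log2 scale. Col6a6 measured 100.7, 68.3, 76.7 and 85.2 CPM in recipients against 60.1, 55.4 and 75.7, with a log2 fold change of 0.38 ± 0.19 (edgeR adjusted p = 0.214), with control 7 inside the range of the recipients. Col6a1 averaged 315 ± 30.7 CPM in recipients and 276 ± 48.0 in controls.

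Among the type IV chains of adult hearts, Col4a5 measured 70.7, 66.7, 76.0 and 70.9 CPM in recipients and 86.9, 87.8 and 81.5 in controls, the only collagen whose libraries did not overlap, where 25.1% of all genes did not. All 4 recipients lay below all 3 controls, with a log2 fold change of -0.27 ± 0.10 (edgeR adjusted p = 0.103; 0.0238 to 0.61 over the alternatives, and called where only the adult libraries were fitted). Col4a1 and Col4a2 had log2 fold changes of 0.15 ± 0.13 and 0.25 ± 0.14 (edgeR adjusted p = 0.481 and 0.25).

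Type I and type III chains did not separate the adult groups. Col1a1 measured 1311, 799.7, 855 and 1598 CPM in recipients against 804, 572 and 1344, with a log2 fold change of 0.33 ± 0.35 (edgeR adjusted p = 0.59). Recipients 1 and 4 and control 7 stood near each other at the top, and recipients 2 and 3 near control 5. Col1a2 and Col3a1 had log2 fold changes of 0.23 ± 0.28 and 0.07 ± 0.14 (edgeR adjusted p = 0.644 and 0.776), and that of Col3a1 turned to -0.02 without recipient 4 and -0.04 without control 6. Summed activated-fibroblast markers (10 genes) were 2019, 2113, 1654 and 2304 CPM in recipients 1 to 4, and 1943, 1484 and 1987 in controls 5 to 7. Recipient 2, the lowest in Col1a1, had the next to highest sum of its group, whereas control 6 was lowest in both. The largest part of the sum in recipient 2 was Acta2, which measured 867.9, 1175, 684.4 and 861.8 CPM in recipients 1 to 4. Recipient 2 was also highest of its group in Fap and next to highest in Comp. For Postn, Cthrc1, Tnc, Lrrc15, Ddah1, Thbs4 and Cilp it was the lowest recipient, as for Col1a1. Summed tendon markers (6 genes) were 93.4, 64.2, 65.3 and 111 CPM in recipients 1 to 4, and 51.9, 26.1 and 123 in controls 5 to 7. Most of each sum came from Fmod and Thbs4 (36.2 and 57.4 CPM in recipient 4, 51.0 and 55.1 in control 7). Fmod also stands in the list of cross-linking and fibril regulation, and Thbs4 among the activated-fibroblast markers. Summed cardiomyocyte markers (10 genes) were 65540 to 73240 CPM in recipients and 55300 to 57510 in controls. Of the 10 genes 4 were called higher and 1 lower, against 3.53% and 5.03% of all genes. These calls were lost without adult recipient 4, adult control 5 or adult control 6, and when the transcript length trend was removed. The part of these markers in the collagen values was not tested.

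The difference between the T cell effects in neonatal and adult hearts was tested as an interaction, and 0 of 42 collagens passed, as 0% of all genes did. Of the 42, Col6a6 alone had an unadjusted p under 0.05, as did 2511 of all 16437 genes (edgeR), with the smallest adjusted p of 0.244; DESeq2 and limma voom also called 0 collagens. Its interaction term was -0.67 ± 0.26 on the log2 scale, from a neonatal value of -0.29 and an adult value of 0.38. The median over the 42 collagens was -0.08 against 0.01 over all genes, with a median standard error of 0.37.

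**Figure D2:**
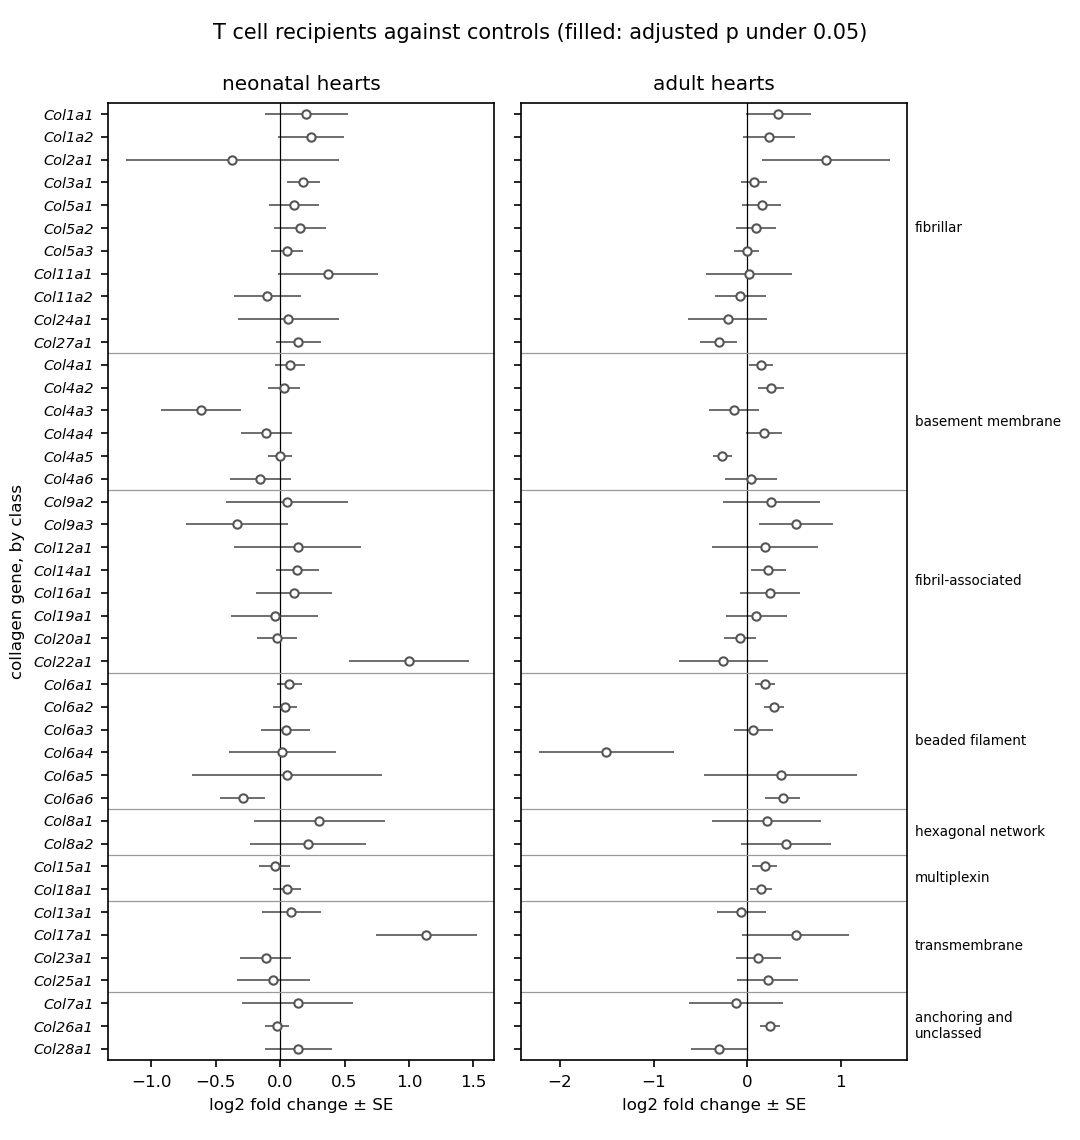
Points are log2 fold changes of T cell recipients against controls with standard errors, for 42 collagens by class, in neonatal hearts (left) and adult hearts (right). No point is filled, since 0 collagens had an adjusted p under 0.05, and the widest bars belong to collagens near the floor such as Col6a4, Col6a5 and Col2a1.

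Age separated the collagens far more than T cells did, and among the basement membrane chains it did so in opposite directions. In recipients, fibrillar and other collagens were also called both ways. Neonatal hearts had more transcript of Col4a1, Col4a5 and Col4a6, of the type V chains Col5a1 and Col5a2, of Col18a1 and of Col23a1, and less of Col4a3 and Col4a4, both in controls and in recipients. Between control hearts 10 of 42 collagens passed (23.8%, against 30.9% of all genes), 7 higher in neonates (15.4% of all genes) and 3 lower (15.6%). Between recipients 20 of 42 passed (47.6%, against 50.7%), 11 higher (26.9% of all genes) and 9 lower (23.8%). The shares of collagens called were thus near or below those of all genes. All 10 genes called in controls were called in the same direction in recipients; the 2 comparisons share no library. Libraries of both ages did not overlap for 9 of 42 collagens in controls (21.4%, against 34.6% of all genes) and 16 of 42 in recipients (38.1%, against 45.4%).

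By class, 5 of 6 basement membrane chains passed in controls and 5 of 6 in recipients. Of the 11 fibrillar chains 2 and 6 passed, of 8 fibril-associated chains 1 and 2, and of 17 other collagens 2 and 7. The count in controls depended on the libraries, since 4 collagens were called without adult control 6, 6 without neonatal control 6, 6 without neonatal control 9 and 14 without neonatal control 8. Without neonatal control 8, adult control 7 and adult recipient 4 together, a choice made after seeing the data, 20 were called in controls and 27 in recipients.

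**Figure D3:**
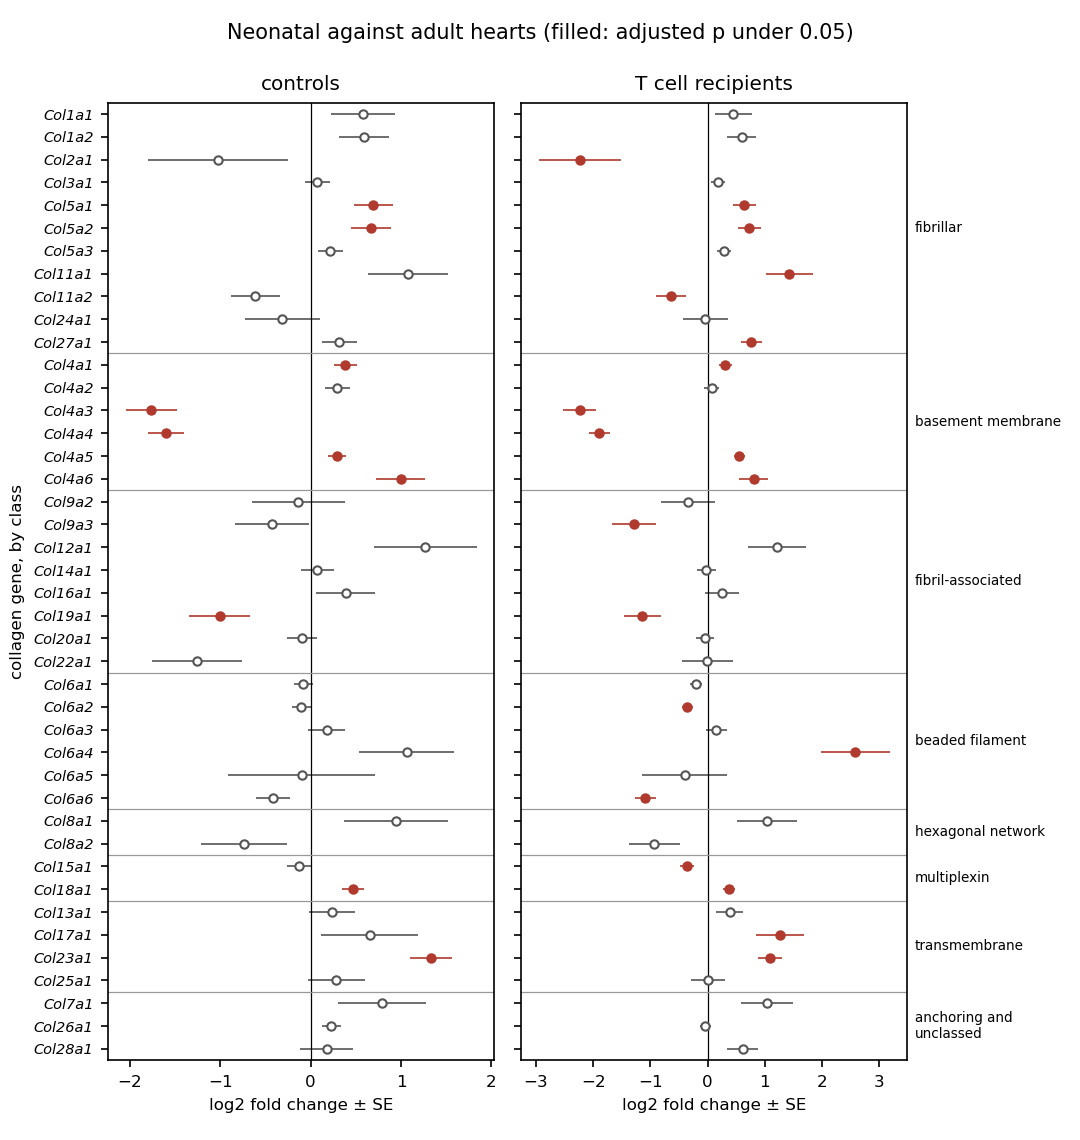
Points are log2 fold changes of neonatal against adult hearts with standard errors, for 42 collagens by class, in controls (left) and T cell recipients (right); filled red points have an adjusted p under 0.05. Col4a3 and Col4a4 stand at -1.60 to -2.23 while the other type IV chains stand above 0, and 10 points are filled on the left and 20 on the right.

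Type IV collagen split by chain. Col4a3 (gene ID 12828, chr1:82586921-82722059, plus strand), a chain known from the basement membranes of kidney glomerulus, lung and inner ear, measured 0.532, 0.733, 0.797 and 0.975 CPM in neonatal controls 6 to 9 and 2.96, 2.54 and 2.23 in adult controls 5 to 7. In recipients it measured 0.629, 0.607, 0.295 and 0.391 CPM in neonates and 2.60, 3.16, 1.37 and 2.22 in adults. Every neonatal library lay below every adult one, although the neonatal levels were only a few times the floor. The log2 fold change was -1.76 ± 0.29 in controls (edgeR adjusted p = 0.000202), which is 3.39-fold lower in neonates, and -2.23 ± 0.29 in recipients (edgeR adjusted p = 7.11e-06), 4.69-fold lower.

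Col4a4 (gene ID 12829, chr1:82448419-82587034, minus strand), which assembles with the products of Col4a3 and Col4a5, changed alike. It measured 1.53, 1.74, 1.82 and 2.51 CPM in neonatal controls and 7.12, 5.96 and 4.14 in adult controls, and 1.98, 1.46, 1.81 and 1.78 in neonatal recipients and 6.33, 7.54, 6.07 and 6.13 in adult recipients. Again the ages did not overlap, and the log2 fold changes were -1.60 ± 0.20 in controls (edgeR adjusted p = 1.47e-05) and -1.89 ± 0.19 in recipients (edgeR adjusted p = 5.23e-07). Both genes kept their call and direction under every alternative run, with log2 fold changes from -2.55 to -1.41. They overlap head to head, so their counts may share some reads.

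Col4a5 and Col4a6, the pair on the X chromosome that lies head to head behind the sequences shown above, moved the other way. Col4a5 (gene ID 12830, chrX:141475370-141689236, plus strand) measured 100.4, 95.7, 101.4 and 120.4 CPM in neonatal controls and 86.9, 87.8 and 81.5 in adult controls, and 109, 125, 95.2 and 88.8 in neonatal recipients against 70.7, 66.7, 76.0 and 70.9 in adult recipients. Neonates lay above adults throughout, by 0.29 ± 0.10 in controls (edgeR adjusted p = 0.0377) and 0.56 ± 0.09 in recipients (edgeR adjusted p = 9.75e-05) on the log2 scale. The call in controls was lost without neonatal control 9 or any single adult control (edgeR adjusted p up to 0.225), whereas that in recipients held under every alternative run.

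Col4a6 (gene ID 94216, chrX:141165403-141474095, minus strand), whose product pairs with that of Col4a5 in smooth muscle basement membranes, measured 6.49, 7.598, 5.03 and 8.62 CPM in neonatal controls and 4.12, 2.12 and 4.18 in adult controls. In recipients it measured 6.92, 6.34, 6.08 and 5.56 CPM in neonates and 4.01, 2.496, 2.30 and 5.34 in adults. Within each treatment all neonatal libraries exceeded all adult ones, by 0.99 ± 0.27 in controls (edgeR adjusted p = 0.0108) and 0.80 ± 0.25 in recipients (edgeR adjusted p = 0.0129) on the log2 scale. Across treatments, adult recipient 4 exceeded neonatal control 8. The call in controls was lost without adult control 6 (edgeR adjusted p = 0.0561), and that in recipients when the transcript length trend was removed (0.0766).

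Col4a1 and Col4a2, the chains of the ubiquitous type IV network, differed less with age than Col4a3, Col4a4 and Col4a6. In controls their log2 fold changes of 0.39 and 0.29 stood beside 0.29 for Col4a5. Col4a1 (gene ID 12826, chr8:11198423-11312889, minus strand) averaged 1920 ± 275 CPM in neonatal and 1470 ± 166 in adult controls, and 2025 ± 163 and 1630 ± 246 in recipients, a log2 fold change of 0.39 ± 0.13 (edgeR adjusted p = 0.0284) and 0.31 ± 0.12 (edgeR adjusted p = 0.0333). Neonatal control 8, at 1512 CPM, fell inside the adult range of 1292 to 1623, and adult recipient 4, at 1973 CPM, inside the neonatal range of recipients. The call in controls was lost without neonatal control 6, 7 or 9 or adult control 5 or 6 (edgeR adjusted p up to 0.134), that in recipients without neonatal recipient 1 or 2 or adult recipient 1, 2 or 3, and both when the trend with transcript length was removed (up to 0.695 in recipients). Col4a2 averaged 1238 ± 191 against 1010 ± 155 CPM in controls and 1264 ± 44.0 against 1202 ± 216 in recipients, and passed in neither (edgeR adjusted p = 0.113 and 0.659); without neonatal control 8 it was called in controls.

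Summed as CPM per kb, Col4a3 and Col4a4 together made up 0.0392% to 0.0694% of all type IV transcript in the 8 neonatal libraries and 0.152% to 0.293% in the 7 adult ones, so both remained minor chains at either age. Col4a5 and Col4a6 made up 2.92% to 4.14% and 2.14% to 4.01%, with overlapping libraries. Within libraries the log2 ratio of Col4a1 to Col4a2 was 0.68 ± 0.09 in neonatal and 0.44 ± 0.05 in adult recipients, with no overlap (exact two-sided permutation test, p = 0.0286, the smallest that 4 against 4 libraries can give). In controls it was 0.63 ± 0.02 and 0.55 ± 0.06, also without overlap (exact permutation p = 0.0571, the smallest that 4 against 3 can give). Neither held after adjustment over the 12 ratio tests made (adjusted p = 0.274 for both, Benjamini-Hochberg over exact permutation tests).

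**Figure D4:**
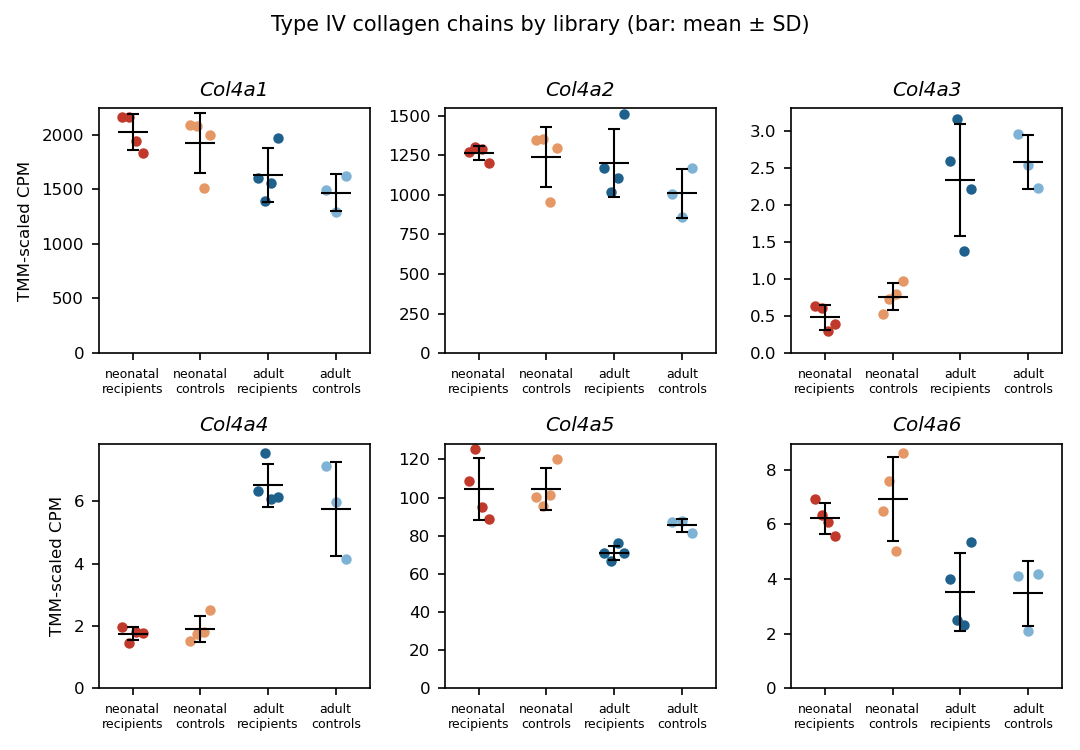
Each panel plots CPM of a type IV chain in the 15 libraries by group, with bars for mean ± SD; every axis starts at 0. Neonatal points lie below all adult points for Col4a3 and Col4a4 and above all adult points of the same treatment for Col4a5 and Col4a6, while those of Col4a1 and Col4a2 overlap.

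Of the 3 type V fibrillar chains, Col5a1 and Col5a2 were higher in neonatal hearts, and Col5a3 passed in neither comparison (edgeR adjusted p = 0.236 and 0.0689), though it was called in controls without neonatal control 8 and in recipients without neonatal recipient 5 or adult recipient 1. Col5a1 (gene ID 12831, chr2:27886381-28039510, plus strand), whose product starts fibril assembly and limits fibril width, measured 542, 559, 324 and 450.1 CPM in neonatal controls and 277, 219 and 373 in adult controls, and 495, 535, 529 and 457 in neonatal recipients and 349, 249.9, 279.5 and 409 in adult recipients. Recipients did not overlap between ages, while neonatal control 8 fell below adult control 7. The log2 fold change was 0.69 ± 0.21 in controls (edgeR adjusted p = 0.0233) and 0.65 ± 0.20 in recipients (edgeR adjusted p = 0.0127).

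Col5a2 (gene ID 12832, chr1:45374331-45503282, minus strand), the partner chain of type V, measured 315, 333, 177.5 and 293 CPM in neonatal controls and 171, 133 and 223.5 in adult controls, and 345, 323, 287 and 289 in neonatal recipients and 189, 154, 168 and 240.5 in adult recipients. Here too only neonatal control 8 fell inside the adult range. The log2 fold changes were 0.67 ± 0.22 (edgeR adjusted p = 0.0321) and 0.73 ± 0.20 (edgeR adjusted p = 0.0078). In controls, both type V calls were lost without neonatal control 6 or 7 or adult control 5 or 6, and that of Col5a2 also without neonatal control 9 (edgeR adjusted p up to 0.0941 and 0.125); in recipients both were lost when the transcript length trend was removed.

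The chains of types I and III were not called at either comparison. Col1a1 averaged 1359 ± 487 CPM in neonatal and 906 ± 396 in adult controls, and 1563 ± 144 and 1141 ± 381 in recipients, a log2 fold change of 0.58 ± 0.35 and 0.45 ± 0.32 (edgeR adjusted p = 0.237 and 0.265). Col1a2 gave 0.59 ± 0.28 and 0.60 ± 0.26 (edgeR adjusted p = 0.129 and 0.068), although its recipients did not overlap, and Col3a1 0.07 ± 0.14 and 0.18 ± 0.13 (edgeR adjusted p = 0.719 and 0.245). Col1a2 was called in controls without neonatal control 8 or without adult control 7, and in recipients without adult recipient 4, with limma voom and where only the compared groups were fitted. Without neonatal control 8, adult control 7 and adult recipient 4 together, Col1a1 and Col1a2 were called in both comparisons and Col3a1 in recipients. The log2 ratio of Col3a1 to Col1a1 ranged from 0.51 to 1.34 in neonatal and from 0.78 to 1.69 in adult libraries, and its difference between ages was -0.52 in controls and -0.32 in recipients (exact permutation p = 0.114 for each, adjusted p = 0.274).

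Further fibrillar chains passed in recipients. Col11a1, a minor fibril chain of cartilage that is also made in injured heart, averaged 24.8 CPM in neonatal and 9.16 in adult recipients, with a log2 fold change of 1.43 ± 0.41 (edgeR adjusted p = 0.0115); in controls the averages were 19.2 and 9.08 and the value 1.08 ± 0.45 did not pass (edgeR adjusted p = 0.0878). The recipient call was lost under the replicate block (edgeR adjusted p = 0.103), and the gene was called in controls with limma voom and without neonatal control 8 or adult control 7. Col27a1 averaged 28.6 and 16.8 CPM in recipients, a log2 fold change of 0.77 ± 0.18 (edgeR adjusted p = 0.00243) that held under every alternative run, and 25.9 and 20.8 in controls (edgeR adjusted p = 0.236). Col11a2 was lower in neonatal recipients, at 2.44 against 3.78 CPM (log2 fold change -0.64 ± 0.26, edgeR adjusted p = 0.0482), a call lost under 7 of 18 alternatives. Whether the age difference of these genes differs between controls and recipients is the interaction tested above, which no collagen passed.

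Among 8 fibril-associated collagens, 1 passed in controls and 2 in recipients, all of them near the floor. Col12a1, which coats type I fibrils under load, measured 51.6, 64.5, 18.9 and 47.9 CPM in neonatal controls and 12.6, 8.04 and 36.2 in adult controls, and 57.9, 50.1, 46.7 and 46.1 in neonatal recipients and 26.4, 10.6, 13.7 and 35.6 in adult recipients. All neonatal recipients exceeded all adult recipients, but with a log2 fold change of 1.21 ± 0.51 the gene did not pass (edgeR adjusted p = 0.0685), nor did it in controls at 1.27 ± 0.57 (edgeR adjusted p = 0.113), where neonatal control 8 lay below adult control 7. It was called in controls without adult control 7 and with limma voom, and in recipients without adult recipient 4, with DESeq2, with limma voom and where only the compared groups were fitted. Col14a1 stood at 128 and 121.5 CPM in controls of both ages and at 140.2 and 142 in recipients.

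Type VI chains went different ways in recipients. Col6a6 (gene ID 245026, chr9:105689417-105828246, minus strand) measured 37.2, 46.1, 43.1 and 29.6 CPM in neonatal recipients and 100.7, 68.3, 76.7 and 85.2 in adult recipients, without overlap, a log2 fold change of -1.08 ± 0.18 (edgeR adjusted p = 0.000157) or 2.12-fold lower in neonates. In controls it measured 34.2, 58.1, 51.3 and 47.2 CPM against 60.1, 55.4 and 75.7, where neonatal control 7 exceeded adult control 6, and the value of -0.42 ± 0.19 did not pass (edgeR adjusted p = 0.107). Per kb, Col6a6 gave 23.4% to 41.0% of the sum of Col6a3 and Col6a6 in neonatal and 38.7% to 49.4% in adult libraries.

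Col6a2 (gene ID 12834, chr10:76595756-76623630, minus strand), which forms the core trimer with the products of Col6a1 and Col6a3, measured 333, 344, 343 and 330 CPM in neonatal recipients and 450.2, 385, 397 and 491 in adult ones, again without overlap, with a log2 fold change of -0.35 ± 0.10 (edgeR adjusted p = 0.0054). In controls the averages were 329 and 353 CPM (edgeR adjusted p = 0.495). Its partners Col6a1 and Col6a3 passed in neither comparison, with values of -0.20 ± 0.10 and 0.15 ± 0.19 in recipients and -0.08 ± 0.11 and 0.18 ± 0.21 in controls. The recipient calls of Col6a6 and Col6a2 held under every alternative run.

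The multiplexins, which carry heparan or chondroitin sulfate in basement membrane zones, differed from each other. Col18a1 (gene ID 12822, chr10:77052178-77166530, minus strand), whose C-terminal fragment is endostatin, measured 255, 222, 194 and 220.2 CPM in neonatal and 170.3, 135 and 177 in adult controls, and 252, 248, 221 and 202 in neonatal recipients and 184, 154, 168 and 206 in adult recipients. Controls did not overlap, and adult recipient 4 slightly exceeded neonatal recipient 5. The log2 fold changes were 0.47 ± 0.12 (edgeR adjusted p = 0.00589) and 0.38 ± 0.11 (edgeR adjusted p = 0.00728), the latter lost when the transcript length trend was removed (0.208). Col15a1 was lower in neonatal recipients, at 248 against 318 CPM (log2 fold change -0.36 ± 0.12, edgeR adjusted p = 0.0211), a call lost without neonatal recipient 4 or adult recipient 4, and stood at 255 and 279.7 CPM in controls (edgeR adjusted p = 0.483).

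Col23a1 (gene ID 237759, chr11:51289679-51583925, plus strand), a transmembrane collagen of cell surfaces, gave the largest rise among the called collagens in controls. It measured 8.48, 8.79, 6.44 and 11.5 CPM in neonatal and 3.48, 3.003 and 4.02 in adult controls, and 9.25, 6.82, 7.98 and 8.48 in neonatal recipients and 3.42, 3.39, 2.54 and 5.71 in adult recipients. No adult library reached the lowest neonatal one. The log2 fold changes were 1.33 ± 0.23 (edgeR adjusted p = 0.000372), 2.51-fold higher, and 1.10 ± 0.21 (edgeR adjusted p = 0.000314), 2.14-fold higher, and both calls held under every alternative run. Col8a1 of the hexagonal networks under endothelium averaged 28.6 ± 13.7 against 14.9 ± 9.33 CPM in controls and 35.3 ± 12.9 against 17.1 ± 9.04 in recipients and did not pass (edgeR adjusted p = 0.246 and 0.121).

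**Figure D5:**
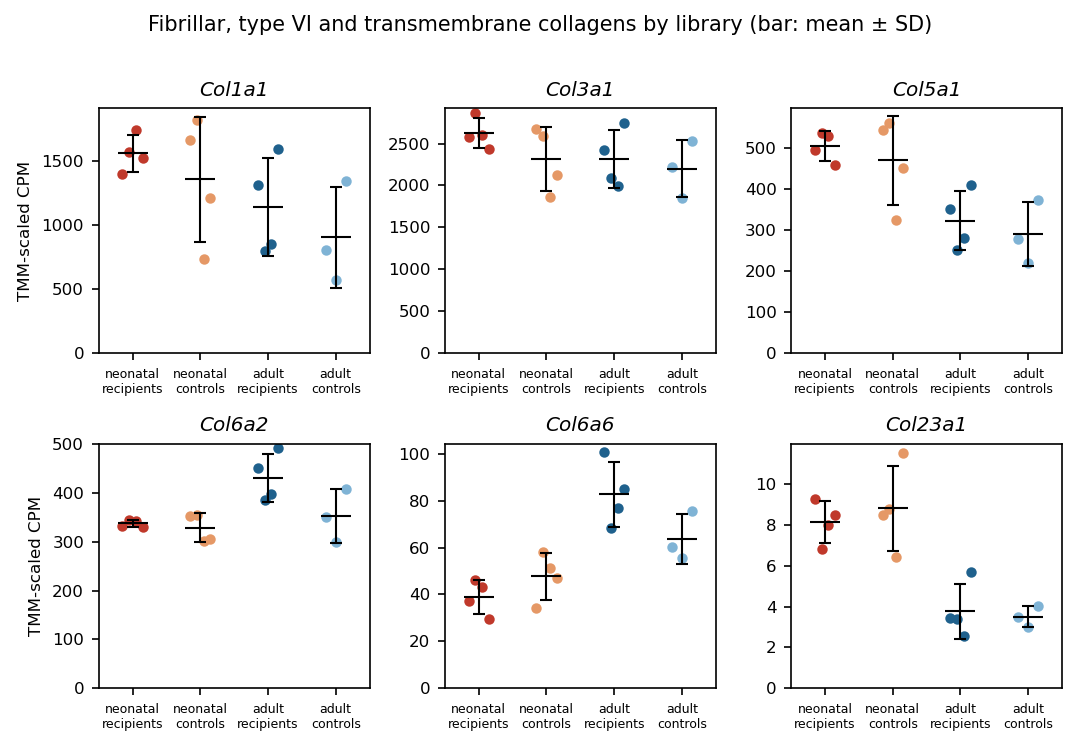
Each panel plots CPM of a fibrillar, type VI or transmembrane chain in the 15 libraries by group, with bars for mean ± SD and axes that start at 0. Col23a1 separates all neonatal from all adult libraries, Col6a2 and Col6a6 separate the ages in recipients only, and Col1a1 and Col3a1 overlap in every comparison.

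Of the collagens called in either comparison of age, 5 averaged about 1 CPM or less in every group, and they are named here after their values were seen. Col19a1 was lower in neonates in controls (0.461 against 0.932 CPM, edgeR adjusted p = 0.0301) and in recipients (0.456 against 1.001, edgeR adjusted p = 0.00638). In recipients Col9a3 (0.397 against 0.947 CPM) and Col2a1 (0.151 against 0.673 CPM), chains of cartilage fibrils, were lower, and Col6a4 (0.483 against 0.0830 CPM) and Col17a1 (0.436 against 0.179 CPM) were higher, with edgeR adjusted p of 0.009, 0.0151, 0.00149 and 0.018. The control call of Col19a1 was lost under 7 of 16 alternatives, among them leaving out neonatal control 6, 7 or 9 or adult control 6 or 7 (edgeR adjusted p up to 0.137), and its recipient call under the replicate block (0.0549). The call of Col17a1 was lost under 5 of 17 alternatives, among them leaving out adult recipient 3 (up to 0.14), that of Col2a1 under 3 of 16, among them leaving out neonatal recipient 1 or 2 (up to 0.121), and that of Col9a3 under the replicate block (0.0784). Several of these averages lie within a few times the floor, and that of Col6a4 in adult recipients lies below it. Col17a1 had 10 to 14 counts in neonatal recipients and at most 7 in every other library. It passed the filter on low counts only through the group where it was high. Col6a4 likewise passed through neonatal libraries and Col2a1 through adult ones, so the p-values of Col17a1, Col6a4 and Col2a1 are not independent of that selection. Cartilage markers (10 genes) summed to 17.8 to 20.5 CPM in neonatal and 14.2 to 24.0 in adult recipients, with Snorc at 0 in every library, and their part in the values of Col2a1 and Col9a3 was not tested.

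The genes that fold, process, cross-link and bind collagens were counted over 59 genes in 4 lists, chosen with earlier results of these data known. With T cells 0 of 59 passed in neonates and 0 of 59 in adults, against 0% and 8.55% of all genes. At an unadjusted p under 0.05 there were 2 and 10 of 59, against 513 and 4491 of all 16437 genes (edgeR). With age 31 of 59 passed in controls (52.5%, against 30.9% of all genes), 21 higher in neonates and 10 lower. In recipients 38 of 59 passed (64.4%, against 50.7% of all genes), 27 higher and 11 lower. Counts by list stand against 15.4% higher and 15.6% lower over all genes in controls, and 26.9% and 23.8% in recipients. The folding and hydroxylation list had 9 of 20 higher and 1 lower in controls and 10 and 2 in recipients. P4hb, a subunit of prolyl 4-hydroxylase, averaged 517 against 358 CPM in controls (log2 fold change 0.53 ± 0.12, edgeR adjusted p = 0.00286), and Plod2, a lysyl hydroxylase that directs cross-links, 44.7 against 26.9 CPM in recipients (0.74 ± 0.10, edgeR adjusted p = 1.58e-05). Colgalt2, a galactosyltransferase of hydroxylysine, was lower in neonates, by -0.99 ± 0.18 in controls and -1.14 ± 0.17 in recipients (edgeR adjusted p = 0.000429 and 2.77e-05).

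For cross-linking and fibril regulation 5 of 12 genes were higher and 4 lower in neonates in each comparison. That is 75% called, against 30.9% of all genes in controls and 50.7% in recipients. Loxl2, a lysyl oxidase that cross-links type IV collagen among others, averaged 278 against 103 CPM in recipients, a log2 fold change of 1.43 ± 0.14 (edgeR adjusted p = 7.58e-07). The small proteoglycans Dcn and Lum, which bind fibrils and regulate their width, were lower in neonatal controls, by -0.94 ± 0.09 and -1.12 ± 0.13 (edgeR adjusted p = 1.18e-06 and 1.53e-05). Both also stand among the resident fibroblast markers counted below. In secretion and propeptide processing 2 of 9 were higher and 2 lower in controls (44.4% called, against 30.9% of all genes), and 3 and 2 in recipients (55.6%, against 50.7%). Pcolce2, an enhancer of procollagen C-proteinase, measured 3.30, 4.83, 5.26 and 3.15 CPM in neonatal and 20.8, 23.4 and 16.8 in adult controls, a log2 fold change of -2.28 ± 0.16 (edgeR adjusted p = 3.35e-08). Adamts14, a procollagen N-proteinase, rose by 0.78 ± 0.14 in controls (edgeR adjusted p = 0.000502).

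Receptors and turnover genes had 5 of 18 higher and 3 lower in neonatal controls (44.4% called, against 30.9% of all genes), and 9 and 3 in recipients (66.7%, against 50.7%). Ddr1, a receptor tyrosine kinase for collagen, averaged 155 against 84.7 CPM in controls and 154 against 88.6 in recipients, with log2 fold changes of 0.87 ± 0.10 and 0.80 ± 0.09 (edgeR adjusted p = 9.02e-06 and 2.45e-06). The integrin chain Itgb1, shared by the collagen-binding integrins, was higher by 0.45 ± 0.08 in controls, and Itga2 by 1.22 ± 0.15 in recipients (edgeR adjusted p = 0.000282 and 4.07e-06).

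Markers of the cell types that make collagens also differed with age, and their part in the collagen differences was not tested. Counts of called markers stand against 15.4% higher and 15.6% lower over all genes in controls, and 26.9% and 23.8% in recipients. Of 10 resident fibroblast markers 6 were lower and 1 higher in neonatal controls, and 7 lower and 1 higher in neonatal recipients, with summed levels of 698 to 883 CPM in neonatal and 1305 to 1519 in adult libraries. Of 10 activated fibroblast markers 2 were higher and 2 lower in controls and 4 higher and 2 lower in recipients, with sums of 2247 to 2940 and 1484 to 2304 CPM. Endothelial markers were lower in neonates for 8 of 10 genes in each comparison (sums of 1155 to 1295 and 1678 to 1903 CPM), and mural markers for 6 of 10 with 1 higher (756 to 983 and 1178 to 1514 CPM). Macrophage markers were higher for 8 of 10 in controls and 10 of 10 in recipients (196.5 to 698 and 158 to 209 CPM), and epicardial markers for 5 and 4 of 10 (113 to 197 and 81.8 to 132 CPM). Of 10 cardiomyocyte markers 3 were lower in neonatal controls, and 8 lower and 1 higher in neonatal recipients, with sums of 43150 to 52990 CPM in neonatal and 55300 to 73240 in adult libraries, which did not overlap.

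Collagen transcripts varied more between libraries of a group than most genes did. The SD of log2 CPM within groups had a median of 0.39 over the 42 collagens and 0.17 over all 16437 genes, and of 0.29 (28 collagens) and 0.13 (11522 genes) where the mean was at least 5 CPM. It was 0.23 for basement membrane, 0.39 for fibrillar and 0.48 for fibril-associated chains. Among collagens of at least 5 CPM it was lowest for Col26a1 (0.14), Col6a2 (0.145) and Col4a5 (0.145), and highest for Col8a1 (0.79), Col12a1 (0.76) and Col9a2 (0.70). No test was made of these spreads.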

How the data were processed

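Polyadenylated RNA of 15 left ventricle libraries (stranded kit with oligo-dT capture, per the labels' protocols) was analysed. Per the submitters' processing notes, bcl2fastq 2.20.0.422, cutadapt 2.5, STAR 2.7.2b, featureCounts 1.6.4, DESeq2 1.24.0 and GRCm38.p6 were used; their roles, the strand setting and the rule for fractional values are not given in the sources used here. The authors deposited 1 table of unscaled expected counts for 39331 RefSeq genes, in which 61.1% of non-zero values were whole. The deposited length column equals the genomic span in 100% of genes and was not used.

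The collagen genes, classes and gene lists were chosen with earlier results of these data known. Counts were rounded, genes filtered by filterByExpr (minimum count 10, minimum total 15; 16437 kept) and libraries scaled by TMM. A single model with a mean for each of the 4 groups was fitted to all 15 libraries in edgeR 4.0.16 (R 4.3.3, robust quasi-likelihood F test), with a threshold of 0.05 after Benjamini-Hochberg adjustment over all genes. The standard error was taken as the size of the log2 fold change divided by the root of F. Levels per kb used the longest GENCODE M21 transcript. Chain ratios are differences of log2(CPM + 1), with 12 exact two-sided permutation tests. Depth per library was 21871617 to 34302786 counts.

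Named were 17 listed collagens, up to 4 called members per class and direction with at least 1 CPM, and up to 2 list genes per comparison with the smallest p; not all are printed. Alternatives were DESeq2 1.42.0, limma 3.58.1 (voom), DESeq2 scaling in edgeR, other filters, unrounded counts, fits of the compared groups only, removal of the transcript length trend (spline with 5 degrees of freedom), a replicate block, another pseudocount and leaving out each library. The steps were tested on simulated data.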

Additional observations from a re-analysis of the deposited data

Results flagged for a closer look

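In groups of 4 libraries, a library was singled out when its gap to the nearest other library was a large part of the range of the group (above the 95% critical value of Dixon's ratio). Of 132 groups tested over the collagens 10 were singled out, where chance gives about 1 in 20.

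Neonatal control 8 was far below the other neonatal controls for 5 collagens. Col4a1 stood at 1512 CPM against 2000 to 2089, Col4a2 at 955.2 against 1295 to 1355, Col15a1 at 202.8 against 267.2 to 276.1, Col6a3 at 84.97 against 128.5 to 133.6 and Col5a3 at 35.81 against 49.61 to 51.97. The same library had the lowest summed macrophage markers of its group, at 196.5 CPM against 339 to 615.

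Neonatal recipient 5 was the highest of its group for Col8a2, at 8.909 CPM against 4.94 to 5.459, and for Col17a1, at 0.4781 against 0.4191 to 0.4246. Adult recipient 2 had 2.308 CPM of Col9a1 against at most 0.2733 in the other adult recipients. It also had the highest levels of the cartilage and joint genes Ucma (0.424 against at most 0.0456 CPM), Hapln1 (1.37 against at most 0.489) and Prg4 (4.95 against at most 1.503) in that group, genes named after their values were seen. Of the other cartilage markers, Acan was lowest in that library (4.003 CPM against 5.968 to 8.016), Sox9 was 7.441 CPM against 5.087 to 10.3, Matn4 5.651 against 1.712 to 5.466, Cnmd 0.0942 and Matn3 0.0471, and Matn1 and Snorc were at 0. Adult recipient 3 had 1.37 CPM of Col19a1 against 0.8269 to 0.9109, and neonatal control 9 had 2.437 CPM of Col11a2 against 2.644 to 2.661.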

How the results depend on the processing

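Counts of called collagens kept within 1.5 times under most alternatives. In adult T cell recipients the count of 0 became 1 with the DESeq2 Wald test, 1 with only the compared groups in the fit, and ranged from 0 to 1 on leaving out each library. Between control hearts of both ages the count of 10 ranged from 4 to 14 on leaving out each library and was 20 without neonatal control 8, adult control 7 and adult recipient 4. Replicate numbers recur across ages, but the deviations of libraries with the same number correlated at 0.07, 0.11, -0.07, -0.06 and 0.31, so the numbers were taken as names. The replicate block gave 9 calls in controls and 19 in recipients, of which 8 and 15 were among the genes called without it. Removing the transcript length trend gave 11 and 16. It moved the collagen median of the age comparison from 0.2242 to 0.1674 in controls and from 0.1674 to -0.062 in recipients. In recipients 20 of 42 were then positive, where the main fit gave 24, and the median over all genes moved from 0.0308 to -0.059. The count of positive values with T cells in neonates, 29, ranged from 15 to 32 over left-out libraries and was 15 without the 3 named libraries. For T cells in neonates, Col4a1 ranged from -0.03 to 0.12 and Col1a1 from -0.0101 to 0.37 over left-out libraries (-0.0297 and -0.0099 without the 3 libraries), and in adults Col3a1 ranged from -0.0371 to 0.18, with -0.02 without adult recipient 4. The log2 ratio of Col1a1 to Col1a2 with T cells in neonates ranged from -0.0617 to 0.0396, positive without neonatal recipient 1, recipient 2, control 6 or control 7; with age in controls it ranged from -0.0534 to 0.0411, positive without neonatal control 8 or adult control 7. That of Col3a1 to Col1a1 with T cells in neonates ranged from -0.196 to 0.0814, positive without control 8. The difference of T cell effects called 0 collagens under every alternative run. The causes of these changes were not tested. With 3 or 4 libraries a group and a median standard error of 0.25 to 0.27 for collagens in the comparisons of groups, small changes were not detectable.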
